A study of Mus musculus with 16 samples.

Results

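De novo lipogenesis is the making of fatty acids from acetyl-CoA, and the 10 genes described here encode its enzymes and regulators in the hepatocyte. They are *Srebf1*, *Mlxipl* and *Thrsp* on the regulatory side, and *Acly*, *Acaca*, *Acacb*, *Fasn*, *Elovl6*, *Scd1* and *Me1* among the enzymes. They were picked by gene symbol, 10 of the 55450 genes of the table, and all 10 were among the 11675 genes whose mean reached 1 CPM (counts scaled to library size) over the 16 libraries. Hepatocytes were isolated from wild-type mice, which the study's methods describe as young adult males of the C57BL/6J strain, and sequenced as bulk RNA in 4 groups of 4 libraries. All cells spent the night in DMEM with 5% FBS and an insulin-transferrin-selenium supplement. One group was left untreated, another received 10 mM sodium itaconate, another received a chemically defined lipid mixture diluted 10-fold, and the last received lipid + itaconate. The mixture is listed with arachidonic acid at 2 µg/ml, linoleic, myristic, oleic, palmitic and stearic acids at 10 µg/ml each, and cholesterol at 0.22 mg/ml. Replicate letters A to D in the sample labels each hold 1 library of every treatment. The number of donor mice is not given in the sources used here, so p-values measure the spread between libraries, which may be technical in part. Hepatocytes are the cells that take up fat and assemble it into triglyceride, and the study asked whether itaconate alters the transcripts of lipid-challenged cells.

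In the pathway, *Acly* splits cytosolic citrate to give acetyl-CoA, *Acaca* and *Acacb* turn it into malonyl-CoA, and *Fasn* builds palmitate from both with NADPH that *Me1* helps to supply. *Elovl6* lengthens palmitate and *Scd1* inserts the double bond of oleate and palmitoleate. In liver, transcription of these genes is known to be driven by SREBP-1c, the product of *Srebf1*, downstream of insulin and LXR, and by ChREBP, the product of *Mlxipl*, downstream of sugar. SREBP precursors are held in the endoplasmic reticulum by INSIG proteins when sterols are plentiful.

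Promoter windows of 2 genes that rose with lipid (*Acaca* and *Mlxipl*) and of 2 that fell (*Srebf1* and *Fasn*) are shown. Whether their letters bear on the direction of change was not tested. RefSeq promoter windows (GRCm38.p6, from 250 bases before to 50 after an annotated start) were given for 9 of the 10 genes (all but *Scd1*), 13 windows in all, and were searched on both strands for the letters CACGTG of the E-box, for the CCAAT box, for GGGCGG, the GC box, and for the sterol response element TCACNCCAC. The 250 bases before the start are printed 5′ to 3′ on the gene's strand, with every match to any of these letters in capitals. They are those of *Fasn* on the minus strand (chr11:120824548-120824797), 1 of the 3 windows of *Srebf1* on the minus strand (chr11:60220628-60220877), *Acaca* on the plus strand (chr11:84195188-84195437) and the window of *Mlxipl* at the start of the gene on the plus strand (chr5:135089640-135089889).
Fasn: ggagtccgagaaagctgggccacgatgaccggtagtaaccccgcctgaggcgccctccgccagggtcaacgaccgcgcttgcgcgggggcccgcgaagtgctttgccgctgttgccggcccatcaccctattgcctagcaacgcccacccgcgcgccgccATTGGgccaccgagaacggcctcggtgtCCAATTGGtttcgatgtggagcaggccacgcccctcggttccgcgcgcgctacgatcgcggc
Srebf1: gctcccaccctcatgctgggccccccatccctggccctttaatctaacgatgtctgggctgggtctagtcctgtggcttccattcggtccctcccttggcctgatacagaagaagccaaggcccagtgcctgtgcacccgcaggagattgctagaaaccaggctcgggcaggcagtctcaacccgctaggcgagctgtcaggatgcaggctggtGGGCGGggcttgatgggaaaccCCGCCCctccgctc
Acaca: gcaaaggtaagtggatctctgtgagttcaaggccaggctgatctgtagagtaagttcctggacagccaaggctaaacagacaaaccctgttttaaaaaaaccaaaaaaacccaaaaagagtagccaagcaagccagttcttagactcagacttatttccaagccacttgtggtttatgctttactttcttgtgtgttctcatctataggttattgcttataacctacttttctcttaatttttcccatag
Mlxipl: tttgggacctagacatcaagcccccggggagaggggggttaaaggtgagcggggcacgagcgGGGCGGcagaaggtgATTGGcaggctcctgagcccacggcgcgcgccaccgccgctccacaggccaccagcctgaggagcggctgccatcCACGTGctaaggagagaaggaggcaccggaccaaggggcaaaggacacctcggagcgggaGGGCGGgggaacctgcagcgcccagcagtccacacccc

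The *Fasn* window held 3 CCAAT boxes, 2 of them overlapping on opposite strands, and no E-box, GC box or sterol response element. The *Srebf1* window printed lies inside the gene as annotated (chr11:60199089-60222581). It held 3 GC boxes, 1 of them just after the start and so not in the printed stretch, and no CCAAT box. The 2 *Srebf1* windows not printed each held 1 CCAAT box, at -166 in the window at the start of the gene and at -30 in the other. The *Acaca* window, which starts inside the gene as GENCODE M21 annotates it (chr11:84129672-84401651), held none of the 4 motifs. A CCAAT box was found for 7 of the 9 genes (41.1% of all 27025 genes with a window), a GC box for 4 (38.2%), an E-box for 1 (8.09%) and the sterol response element for 1 (1.44%). The E-box was in the *Mlxipl* window printed, and the sterol response element in the other *Mlxipl* window (chr5:135106641-135106940), which lies inside the gene as annotated. These are matches of letters and not measured sites.

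Library totals ran from 22346049 to 35512004 expected counts, and the lowest count of any of the 10 genes in a library was 762 (*Thrsp*), so that none was limited by depth. All 8 hepatocyte markers exceeded 1 CPM, and albumin (*Alb*) averaged 33510 CPM. With lipid 3 of these 8 fell, *Alb* by 12.0%, *Ttr* by 13.1% and *Serpina1c* by 13.1%, and none rose, while in lipid + itaconate against itaconate 5 fell, from *Alb* by 11.5% to *Cps1* by 32.6%, and 1 rose (*Hnf4a*, by 15.4%). Neither itaconate comparison called a hepatocyte marker. The summed CPM of the macrophage list (6 of 6 markers at or over 1 CPM) ran from 167 to 271 in untreated and from 224 to 318 in lipid-treated libraries, almost all of it from *Cd68* (mean 218 CPM), and with lipid 1 of the 6 rose (*Cd68*) and 2 fell (*Adgre1* and *Marco*). In lipid + itaconate against itaconate, *Cd68* rose (log2 0.58) and the other 5 fell, from 33.5% (*Lyz2*) to 65.1% (*Adgre1*). With itaconate by itself *Lyz2* rose by 41.2% and *Cd68* fell by 15.6%, and with lipid present none passed. The summed CPM of the cholangiocyte list (2 of 5 markers, *Spp1* and *Sox9*) ran from 600 to 1171 in untreated and from 336 to 609 in lipid-treated libraries, and both fell in each lipid comparison, while the defining markers *Krt19*, *Krt7* and *Epcam* averaged under 1 CPM. The endothelial (5 of 5), stellate (1 of 5) and adipocyte (1 of 5) lists summed to at most 20.9, 24.4 and 7.55 CPM in any library. The part of these cell types in the results below was not tested. Lipid + itaconate replicate B stood apart from the other libraries of its group (chi-square per gene 86.9 to 120 against them, at most 52.3 for any other pair within a group). The main counts and calls that rest on it are therefore also given without it. In lipid + itaconate against itaconate the hepatocyte, macrophage and cholangiocyte calls above all held without it, in the same directions. The calls of *Stab2* (endothelial), *Reln* (stellate) and *Cidec* (adipocyte) in that comparison were lost (adjusted p = 0.174, 0.0793 and 0.193 by edgeR). In bulk RNA, fewer cells of a type and less RNA per cell cannot be told apart.

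Levels were compared between genes per kilobase of exon (CPM per kb, from the GENCODE M21 exon lengths). The length used was the union of the exons of all annotated transcripts. It was 17.1 kb for *Acaca* (9 transcripts) and 9.63 kb for *Acacb* (5 transcripts). A union can be longer than any single transcript, and no other length was tried, so the order of genes given here holds for this length only. In untreated hepatocytes *Scd1* stood far above the others at 998.8 ± 210 CPM per kb (SD, n = 4), followed by *Me1* at 72.9 ± 7.97 and *Acly* at 51.6 ± 2.03. *Mlxipl* (20.8 ± 2.01), *Thrsp* (19.3 ± 3.88), *Fasn* (19.2 ± 0.668) and *Srebf1* (18.4 ± 0.605) were not separated beyond their spread. *Acacb* (7.11 ± 1.178) and *Elovl6* (6.29 ± 0.216) did not differ beyond their spread either, and *Acaca* was lowest at 2.76 ± 0.107 CPM per kb. With lipid, *Acaca* rose to 7.26 ± 0.839 CPM per kb and *Acacb* lay at 5.92 ± 0.451, so that the order of the 2 means was reversed. With lipid + itaconate, *Acaca* at 5.25 ± 1.11 CPM per kb and *Acacb* at 5.73 ± 0.677 were not separated beyond their spread.

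**Figure D1:**
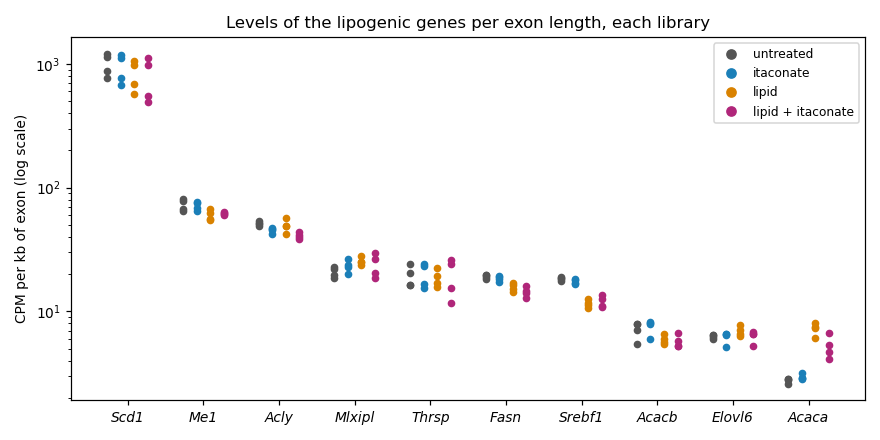
Level of each gene in CPM per kb of exon (log scale), genes ordered by their untreated mean, 1 point per library and 1 colour per treatment. *Scd1* lies at 493 CPM per kb or more in every library, while *Acaca* has means of 2.76 (untreated) and 2.96 (itaconate) CPM per kb without lipid, 7.26 with lipid and 5.25 with lipid + itaconate.

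Lipid changed most of these genes, and not in 1 direction. Against untreated cells, 7 of the 10 genes passed an adjusted p of 0.05 in edgeR's quasi-likelihood test, 2 higher (*Acaca* and *Mlxipl*) and 5 lower (*Srebf1*, *Fasn*, *Scd1*, *Me1* and *Acacb*). Over all genes tested the same comparison called 47.5% (23.8% higher and 23.7% lower), so that a call by itself does not set the 10 genes apart. Their median log2 fold change was -0.17. Scaling by library totals alone moved the split of all called genes from 50.1% to 68.5% higher, and that of the 10 genes to 3 higher and 4 lower.

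*Srebf1* (ENSMUSG00000020538.15, chr11:60199089-60222581) encodes the SREBP-1 proteins that switch on the lipogenic genes. Its level was 105, 99.4, 107 and 102 CPM in untreated replicates A to D and 63.4, 59.9, 71.3 and 66.2 CPM in lipid-treated replicates A to D. All lipid-treated libraries lay below all untreated ones. The log2 fold change was -0.67 ± 0.066 (SE), a fall of 37.0%, with an adjusted p of 1.31e-06 in edgeR's quasi-likelihood test. The gene shares 109 exon bases with *Rai1* on the opposite strand, which averaged 31.8 CPM in untreated and 34.1 CPM in lipid-treated cells. Whether strand was used in counting is not given in the sources used here.

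*Mlxipl* (ENSMUSG00000005373.13, chr5:135089890-135138382) encodes ChREBP. It measured 103, 127, 122 and 109 CPM in untreated and 138, 131, 155 and 138 CPM in lipid-treated replicates A to D, without overlap. The rise was 1.22-fold (log2 0.29 ± 0.095, adjusted p = 0.0210 by edgeR). It is close to the threshold, and the adjusted p was 0.0630 without untreated replicate A, 0.0862 without untreated replicate C, 0.0794 without untreated replicate D and 0.0708 without lipid replicate A. Without the replicate block it was 0.0827.

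*Thrsp* (ENSMUSG00000035686.8, chr7:97412938-97417730) encodes Spot 14, a small protein of lipogenic tissues. It measured 53.3, 44.6, 35.6 and 35.6 CPM in untreated and 48.9, 42.3, 34.7 and 37.4 CPM in lipid-treated replicates A to D. The groups overlapped, and the log2 fold change of -0.04 had a 95% interval of -0.25 to 0.16 (adjusted p = 0.749 by edgeR). In every treatment replicates A and B were above C and D.

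*Acaca* (ENSMUSG00000020532.18, chr11:84129672-84401651), the acetyl-CoA carboxylase that feeds fatty acid synthesis, showed the largest change of the 10. It measured 48.4, 47.4, 44.5 and 48.3 CPM in untreated and 126, 104, 128 and 138 CPM in lipid-treated replicates A to D. The lowest lipid-treated library was above the highest untreated one by a wide margin. The rise was 2.63-fold (log2 1.39 ± 0.10, adjusted p = 6.65e-08 by edgeR), and it passed under all 24 alternatives. The counts of *Acaca* were not whole numbers in any library, which shows that the quantification shared some of its reads with other features.

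*Acacb* (ENSMUSG00000042010.16, chr5:114146535-114250761) encodes the carboxylase isoform whose malonyl-CoA holds back fatty acid entry into mitochondria. It measured 52.6, 68.0, 76.6 and 76.8 CPM in untreated and 52.8, 57.6, 55.0 and 62.9 CPM in lipid-treated replicates A to D. It was lower with lipid in 3 of 4 letters, with no difference in A, and the groups overlapped. The log2 fold change was -0.26 ± 0.077 (adjusted p = 0.0120 by edgeR), and the adjusted p was 0.0919 without the replicate block, 0.0527 on library totals alone and 0.0661 without untreated replicate C.

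*Fasn* (ENSMUSG00000025153.9, chr11:120805846-120824547), the synthase that builds palmitate, measured 217, 200, 214 and 210 CPM in untreated and 186, 156, 166 and 181 CPM in lipid-treated replicates A to D. All 4 letters fell and the groups did not overlap. The log2 fold change was -0.29 ± 0.042, a fall of 18.4% (adjusted p = 4.8e-05 by edgeR).

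*Scd1* (ENSMUSG00000037071.3, chr19:44394455-44407879), the stearoyl-CoA desaturase, was the most abundant of the 10. It measured 5567, 5920, 3747 and 4310 CPM in untreated and 4825, 5166, 2820 and 3379 CPM in lipid-treated replicates A to D. The groups overlapped because replicates A and B were above C and D, but within each letter the lipid-treated library was lower. The log2 fold change was -0.29 ± 0.077 (adjusted p = 0.00513 by edgeR), against an adjusted p of 0.449 without the replicate block.

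*Me1* (ENSMUSG00000032418.15, chr9:86581371-86695953), cytosolic malic enzyme, measured 250, 258, 310 and 303 CPM in untreated and 214, 213, 242 and 257 CPM in lipid-treated replicates A to D. It was lower in all 4 letters, with overlapping groups, at a log2 fold change of -0.28 ± 0.053 (adjusted p = 0.000513 by edgeR). Like *Acaca*, *Scd1* and *Me1* had counts that were not whole in all 16 libraries.

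*Acly* (ENSMUSG00000020917.17, chr11:100476353-100528000) and *Elovl6* (ENSMUSG00000041220.10, chr3:129532355-129638495) did not pass. *Acly* measured 287, 270, 261 and 273 CPM in untreated and 257, 222, 259 and 299 CPM in lipid-treated replicates A to D. Its log2 fold change was -0.08 (95% interval -0.20 to 0.05, adjusted p = 0.287 by edgeR). *Elovl6* measured 40.2, 41.7, 38.6 and 41.3 CPM in untreated and 42.2, 45.4, 40.7 and 49.8 CPM in lipid-treated replicates A to D. It was higher in 4 of 4 letters at a log2 fold change of 0.14 (95% interval 0.02 to 0.25, adjusted p = 0.0568 by edgeR), and the adjusted p was under 0.05 in 6 of 24 alternatives.

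**Figure D2:**
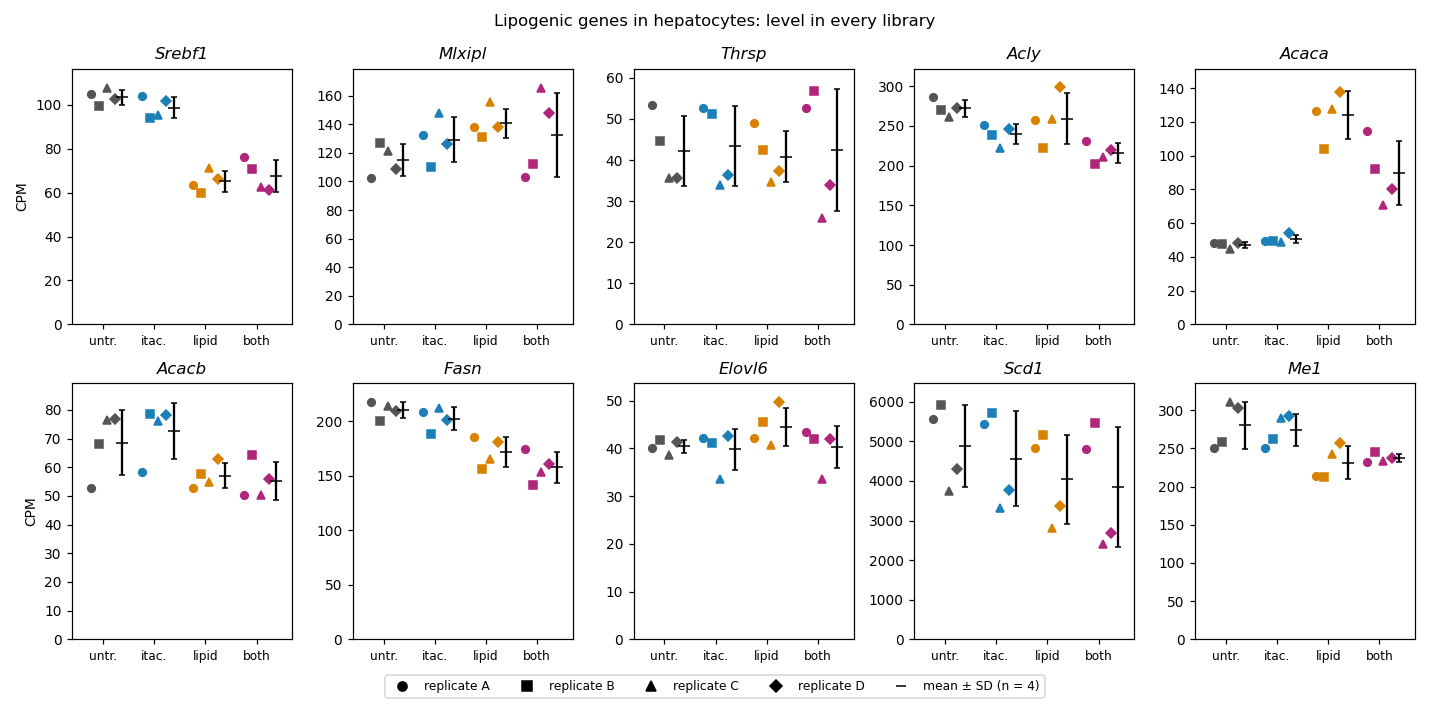
CPM of each of the 10 genes in every library (untr., untreated; itac., itaconate; both, lipid + itaconate), with 1 marker shape per replicate letter and the mean ± SD of each group (n = 4) beside it. *Acaca* is at 44.5 to 54.1 CPM without lipid and 71.0 to 138 CPM with it, *Srebf1* at 93.9 to 107 CPM without lipid and 59.9 to 76.4 CPM with it, and *Scd1* and *Thrsp* split by letter.

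The lipid effect was next read with itaconate in both arms, in lipid + itaconate against itaconate. Again 7 of the 10 genes passed, 1 higher (*Acaca*) and 6 lower (*Srebf1*, *Fasn*, *Acacb*, *Scd1*, *Me1* and *Acly*), where 47% of all genes tested passed (23.5% higher and 23.5% lower). No library is shared with the comparison of lipid with untreated cells, although both were fitted in 1 model. *Srebf1* measured 104, 93.9, 95.4 and 102 CPM with itaconate and 76.4, 70.5, 62.3 and 60.9 CPM with lipid + itaconate in replicates A to D, without overlap (log2 -0.55 ± 0.066, adjusted p = 9.81e-06 by edgeR). *Acaca* measured 49.6, 49.3, 48.9 and 54.1 CPM with itaconate and 115, 92.2, 71.0 and 80.3 CPM with lipid + itaconate. Its groups did not overlap, and it rose 1.76-fold (log2 0.82 ± 0.10, adjusted p = 1.41e-05 by edgeR).

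*Fasn* (209, 188, 212 and 201 CPM with itaconate, 175, 142, 153 and 161 CPM with both) fell without overlap, at a log2 fold change of -0.36 ± 0.042 and an adjusted p of 7.95e-06 in edgeR's test. *Acacb* fell by 0.39 ± 0.076 on the log2 scale, *Scd1* by 0.29 ± 0.077 and *Me1* by 0.20 ± 0.052, each in all 4 letters, and *Me1* without overlap. *Acly* fell by 0.15 ± 0.057 on the log2 scale (adjusted p = 0.0424 by edgeR), a call that was lost in 9 of 24 alternatives, among them without lipid + itaconate replicate B (0.0787), without itaconate replicate B (0.130) and without lipid + itaconate replicate D (0.126). *Mlxipl* did not pass here (log2 0.02, 95% interval -0.18 to 0.22). Without lipid + itaconate replicate B, 6 of the 10 genes passed, and *Acaca* rose by log2 0.77. Without the replicate block, 4 genes passed in this comparison and 4 in that of lipid with untreated cells, *Srebf1*, *Acaca*, *Fasn* and either *Acacb* (here) or *Me1* (there).

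Itaconate by itself called none of the 10 genes against untreated cells, where it called 4.91% of all genes tested (1.96% higher and 2.95% lower). Before adjustment, 1 gene, *Acly*, was under 0.05 by the same edgeR test. *Acly* measured from 222 to 251.3 CPM with itaconate, each library below all 4 untreated libraries (261 to 287 CPM). Its log2 fold change was -0.19 ± 0.057 (95% interval -0.31 to -0.07), with a raw p of 0.00483 and an adjusted p of 0.0712 by edgeR. DESeq2 called 1 gene, *Acly*, with an adjusted p of 0.0356, and limma none. *Acaca* was also outside the untreated range, from 48.9 to 54.1 CPM against 44.5 to 48.4 CPM, but the change of log2 0.10 (95% interval -0.12 to 0.32) did not pass. For the other 8 genes the log2 fold changes lay between -0.12 (*Scd1*) and 0.16 (*Mlxipl*).

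Itaconate in the presence of lipid, the lipid + itaconate against lipid comparison, called 2 of the 10 genes, both lower, *Acaca* and *Acly*, where 2.58% of all genes tested passed (1.32% higher and 1.26% lower). Lipid-treated *Acaca* at 126, 104, 128 and 138 CPM stood against 115, 92.2, 71.0 and 80.3 CPM with both in replicates A to D. Every letter was lower, by little in A and B and by far more in C and D, and the groups overlapped. It fell by 28.1% (log2 -0.48 ± 0.099, 95% interval -0.69 to -0.26, adjusted p = 0.0221 by edgeR). *Acly*, at 257, 222, 259 and 299 CPM with lipid and 231, 202, 211 and 220 CPM with both, fell by 16.5% in all 4 letters with overlapping groups (log2 -0.26 ± 0.057, adjusted p = 0.0278 by edgeR).

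Both calls hung on single libraries. The adjusted p of *Acaca* was 0.0687 without lipid replicate C, 0.0891 without lipid replicate D and 0.0758 without lipid + itaconate replicate D, and that of *Acly* was 0.0803, 0.0999 and 0.0803 without the same libraries and 0.0672 without lipid + itaconate replicate A. Without lipid + itaconate replicate B, *Acaca* remained called (log2 -0.53, adjusted p = 0.0274) and *Acly* did not (log2 -0.26, adjusted p = 0.0655), while the number of all genes called fell from 301 to 134. Without the replicate block neither passed, with an adjusted p of 0.159 for *Acaca* and 0.232 for *Acly*. *Fasn* was lower in all 4 letters at log2 -0.13 (adjusted p = 0.132 by edgeR), and *Elovl6* at log2 -0.15 (adjusted p = 0.179 by edgeR) was lower in 3 of 4.

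*Srebf1* itself, at 67.5 ± 7.27 CPM with both and 65.2 ± 4.81 CPM with lipid (SD, n = 4), differed by log2 0.05 (95% interval -0.09 to 0.19, adjusted p = 0.743 by edgeR). The letters went opposite ways, higher with itaconate in A and B and lower in C and D. The lipid + itaconate libraries were split by letter for several genes. *Mlxipl* measured 103 and 112 CPM in A and B against 166 and 148 CPM in C and D, *Scd1* 4808 and 5455 CPM against 2412 and 2683 CPM, and *Thrsp* 52.6 and 56.9 CPM against 25.8 and 34.0 CPM. For *Scd1* and *Thrsp* replicates A and B were above C and D in the other 3 treatments too. Mitochondrial transcripts made up 3.99% and 4.11% of the counts in A and B and 6.01% and 4.97% in C and D of this group. In replicates A to D they made up 4.11%, 3.46%, 4.7% and 4.58% with lipid and 4.29%, 3.27%, 4.39% and 4.69% with itaconate. In untreated replicates A to D they made up 3.63%, 3.7%, 3.65% and 4.14%. Their part in the split was not tested.

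**Figure D3:**
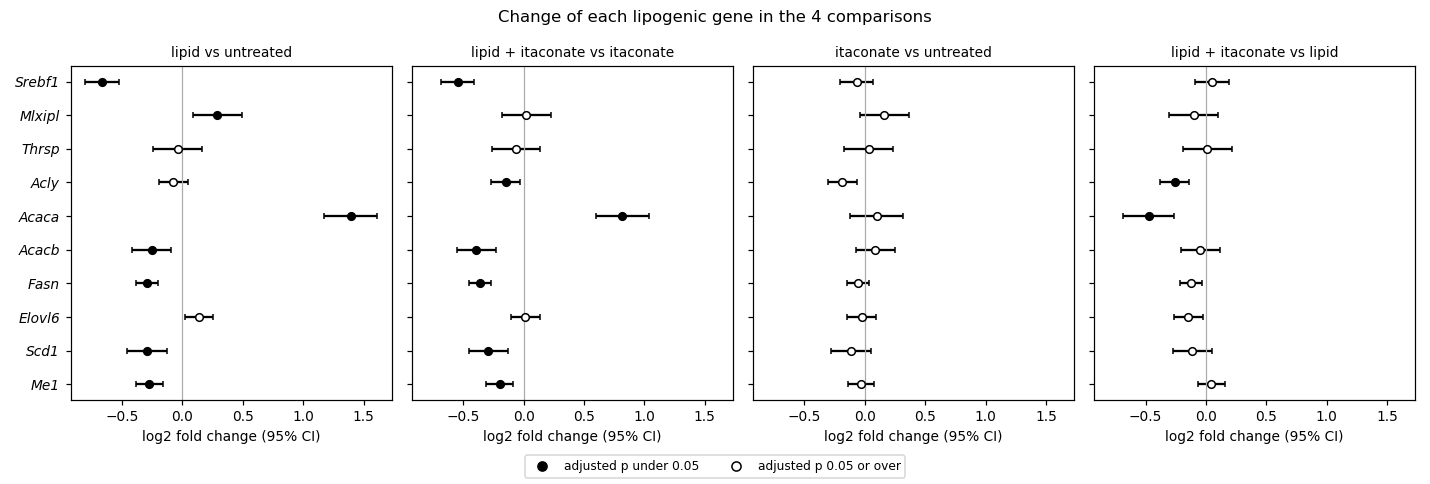
Log2 fold change of each gene with its 95% interval in 4 comparisons, filled where edgeR's adjusted p was under 0.05. The interval of *Acaca* lies furthest right in both lipid comparisons (1.39 and 0.82), *Srebf1* furthest left (-0.67 and -0.55), and the itaconate comparisons hold 2 filled points, both to the left.

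Whether the itaconate change differed between cells with and without lipid was read from the interaction term. No gene of the 10 passed, where 0.00857% of all genes tested, 1 gene, did. *Acaca* had the largest term, log2 -0.57 ± 0.14 (95% interval -0.88 to -0.27), with a raw p of 0.00107 and an adjusted p of 0.257 by edgeR, and it alone among the 10 was under 0.05 before adjustment. DESeq2 gave *Acaca* an adjusted p of 0.0213 and limma called none of the 10. With no filter, edgeR called *Acaca* (adjusted p = 8.04e-10) and *Mlxipl* (0.0356), and 231 of all genes, so that the call depends on the filter. Without lipid + itaconate replicate B, none of the 10 passed by edgeR (*Acaca* at log2 -0.63, adjusted p = 0.133), and 7 of all genes did. The term of *Mlxipl* was log2 -0.27 (95% interval -0.55 to 0.02), and those of the other 8 genes lay between -0.13 (*Acacb*) and 0.12 (*Srebf1*).

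Genes around the pathway were read from lists drawn up from general knowledge, with earlier results of these data known. Each count is to be read beside the share of all genes tested in the same comparison. With lipid that share was 47.5% (23.8% higher and 23.7% lower, median log2 fold change 0.0047), and in lipid + itaconate against itaconate it was 47% (23.5% higher and 23.5% lower, median 0.0041). For itaconate by itself it was 4.91% (1.96% higher and 2.95% lower). For lipid + itaconate against lipid it was 2.58% (1.32% higher and 1.26% lower). In the list of ChREBP targets and sugar handling, 10 of 11 genes (90.9%, where 23.8% of all genes rose) rose with lipid against untreated cells and none fell, with a median log2 fold change of 0.59. This list leaves out the 10 lipogenic genes, of which 2 rose and 5 fell with lipid. *Txnip*, a thioredoxin inhibitor, rose from 26.1 ± 4.47 to 139 ± 17.5 CPM (5.42-fold). *Tkfc*, which phosphorylates dihydroxyacetone and glyceraldehyde, rose 1.88-fold, *Arrdc4*, an arrestin-like relative of *Txnip*, 1.66-fold and *Gpd1*, which makes glycerol 3-phosphate, by log2 0.58. Itaconate by itself called none of the 11, and in the presence of lipid it lowered 3, *Pklr* by 32.9%, *Arrdc4* by 31.3% and *Tkfc* by 24.3% (27.3% of the list, where 2.58% of all genes passed). The *Pklr* call (adjusted p = 0.0427 by edgeR) was lost in 10 of 24 alternatives, with an adjusted p of up to 0.391, among them without lipid + itaconate replicate B (0.108), where the count of the list was again 3. *Arrdc4* and *Tkfc* passed without that library, and their calls were lost in 1 and 2 of 24 alternatives. Lipid on top of itaconate raised 5 of the 11 (45.5%, where 23.5% of all genes rose), *Txnip* 2.89-fold and *Tkfc* 1.41-fold among them.

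In the list of SREBP and LXR control, 8 of 15 genes passed with lipid, 4 higher and 4 lower (median log2 fold change -0.05), a share of 53.3% that is near the 47.5% of all genes. *Insig1*, which retains SREBPs in the endoplasmic reticulum and is itself an SREBP target, fell from 237 ± 20.5 to 91.0 ± 6.01 CPM (log2 -1.38). *Srebf2*, the sterol-responsive relative of *Srebf1*, fell by 27.7% and *Usf2*, an E-box factor, by 16.0%. *Mid1ip1*, which promotes polymerization of acetyl-CoA carboxylase, rose 1.40-fold, and it was the 1 gene of the list that fell with itaconate in the presence of lipid (log2 -0.34 ± 0.070, adjusted p = 0.0221 by edgeR), as *Acaca* did. That call was lost in 5 of 24 alternatives, and without lipid + itaconate replicate B it held (adjusted p = 0.0348). With itaconate in both arms, 7 of 15 passed, 2 higher and 5 lower, which at 46.7% is the share of all genes (47%), with *Insig1* at log2 -1.10, *Usf2* at -0.24, *Srebf2* at -0.30 and *Mlx*, the partner of ChREBP, at 0.26. Itaconate by itself called none.

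Of the genes that supply substrate and NADPH, 8 of 10 (80%, against 47.5% of all genes) passed with lipid, 7 lower and 1 higher (*Slc25a1*, the mitochondrial citrate carrier, log2 0.11, named here after its value was seen). The lowest p-values were those of *Idh1* (a fall of 38.2%), *Pgd* (19.5%), *Pdha1* (18.7%) and *G6pdx* (20.8%), the first, second and last of which make cytosolic NADPH. Itaconate by itself lowered 2 of the 10 (20%, where 2.95% of all genes fell), *Taldo1* by 13.0% and *Slc25a1* by 12.1%. These calls were lost in 5 and 4 of 24 alternatives, and with lipid present none passed. Lipid on top of itaconate lowered 6 and raised 1 (70.0% of the list, against 47% of all genes). *Idh1* was at log2 -0.49, *Mpc1* at -0.28, *Pdha1* at -0.23 and *Acss2* at -0.32.

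Of the other desaturases and elongases, 12 of 14 were tested, 7 (58.3%, against 23.7% of all genes) fell with lipid and none rose. *Fads1* and *Fads2*, the desaturases of polyunsaturated fatty acids, fell by 38.5% and fell by 32.1%, respectively, *Scd2* from 10.2 ± 1.65 to 2.92 ± 0.553 CPM (71.3%) and *Elovl7* by 23.0%. Itaconate by itself lowered 2 of the 12 (16.7%, where 2.95% of all genes fell), *Elovl7* by 16.4% and *Fads2* by 13.5%. These calls were lost in 8 and 7 of 24 alternatives, and none passed with lipid present. Among itaconate-treated cells lipid lowered 6 (50%, where 23.5% of all genes fell), with *Scd2* at log2 -1.62 and *Fads1* at -0.59. In glyceride synthesis, downstream of the fatty acids, 9 of 11 genes were tested. With lipid 7 fell (77.8%, where 23.7% of all genes fell) and none rose. The 7 included *Lpin1*, a phosphatidate phosphatase, which fell by 46.9%, *Agpat2* by 23.6%, *Gpat4* by 17.6% and *Agpat3* by 15.3%. With itaconate in both arms 8 fell (88.9%, where 23.5% of all genes fell), with *Lpin1* at log2 -0.65, *Gpam* at -0.44, *Dgat2* at -0.44 and *Agpat2* at -0.37. Neither itaconate comparison called any glyceride gene.

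Of 8 LXR targets, 6 were tested and 3 fell with lipid (50%, where 23.7% of all genes fell), none rising. They were the sterol transporters *Abca1* (17.7%) and *Abcg5* (37.0%), and the phosphodiesterase *Smpdl3a* (17.3%). In lipid + itaconate against itaconate 3 fell, *Abca1*, *Abcg5* and *Abcg8*, and 1 rose, *Lpcat3* (1.34-fold), a share of 66.7% against 47% of all genes. Neither itaconate comparison called any. Sterol synthesis and uptake, the branch that SREBP-2 controls, had 19 of 21 genes (90.5%, against 47.5% of all genes) past the threshold with lipid. Of these, 18 were lower and 1 higher (*Dhcr7*, log2 0.47, named after its value was seen), and the median log2 fold change of the list was -0.56. *Hmgcs1* fell by 52.5%, *Lss* by 54.1% and *Nsdhl* by 44.4%. Itaconate by itself lowered 4 of the 21, *Hmgcs1* by 23.5%, *Fdps* by 15.9%, *Lss* by 21.4% and *Hsd17b7* by 22.8% (19.0% of the list, where 4.91% of all genes passed). These calls were lost in 5, 6, 8 and 10 of 24 alternatives. With lipid present 1 fell, *Hsd17b7* (24.7%), a call lost in 16 of 24 alternatives, among them without lipid + itaconate replicate B (adjusted p = 0.130 by edgeR). With itaconate in both arms, 16 fell and 1 rose (81.0%, against 47% of all genes), with *Idi1* at log2 -1.09 and *Nsdhl* at -0.66. In each of these lists no gene passed for the interaction. Without lipid + itaconate replicate B the counts in lipid + itaconate against itaconate were the same in 6 of the 7 lists, the sterol list having 17 lower and 1 higher, and 1 gene of the ChREBP list passed for the interaction (*Arrdc4*, log2 -0.51, adjusted p = 0.0271 by edgeR, named after its value was seen). The list counts share their untreated or lipid-treated libraries with one another, and no list was tested as a set.

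**Figure D4:**
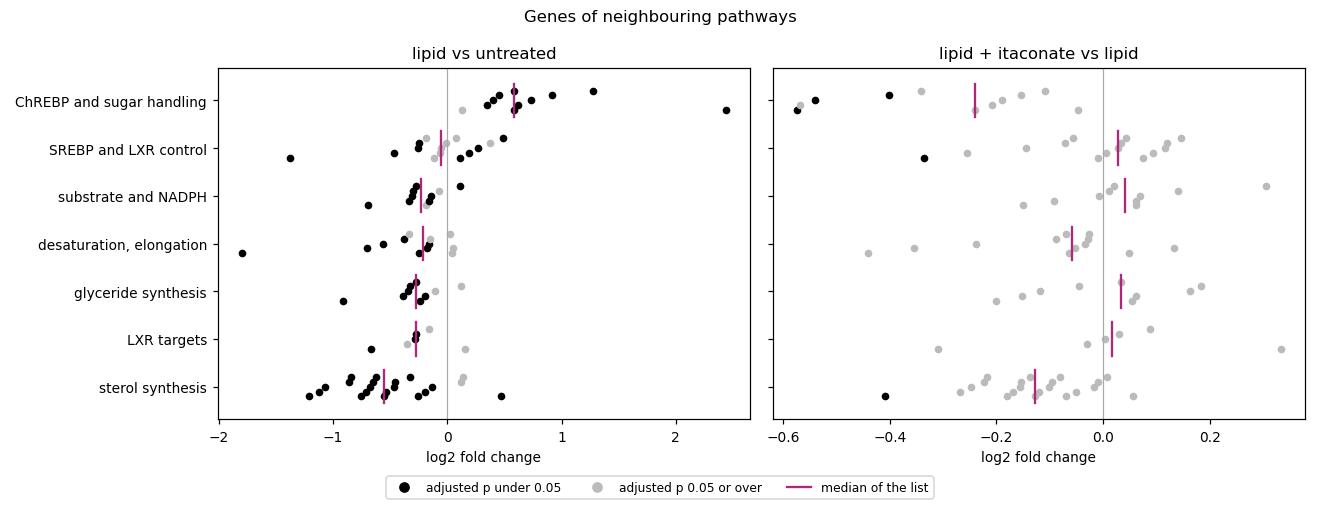
Log2 fold change of every tested gene of 7 lists, for lipid against untreated (left) and lipid + itaconate against lipid (right, on a narrower axis), black where edgeR's adjusted p was under 0.05, with the list's median as a line. With lipid the ChREBP and sugar list has its median at 0.59 and the sterol list at -0.56, and on the right the black points are 5 genes, all to the left of 0.

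Across the 16 libraries, the pattern of *Srebf1* in log2 CPM was most like that of *Insig1* (Pearson's r = 0.963), *Ddx54* (0.963), *Cyth2* (0.963), *Arf1* (0.958) and *S1pr1* (0.956) among the 9635 compared, which had a mean level of 5 CPM or more. That of *Fasn* was most like *Slc37a1* (0.975), *Txndc5* (0.940), *Mindy1* (0.938), *Ccdc12* (0.932) and *Dnttip1* (0.920). Among the 10 genes themselves, the highest correlations were those of *Thrsp* with *Scd1* (0.886), *Srebf1* with *Fasn* (0.856) and *Acacb* with *Me1* (0.835). The lowest were *Srebf1* with *Acaca* (-0.844) and *Mlxipl* with *Scd1* (-0.744). These describe 16 points that share treatments, replicate letters and library scaling. The *Thrsp* and *Scd1* pair follows the letters, since A and B were above C and D in every treatment for both genes, while the *Srebf1* and *Fasn* pair follows the lipid treatment.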

How the data were processed

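RNA from 16 hepatocyte libraries was deposited by the authors as RSEM expected counts per gene without normalization. Per the labels and the study's methods, reads were prepared with a stranded mRNA kit from 500 ng of RNA, trimmed with Cutadapt 1.18, aligned to mm10 with STAR 2.7.0f and counted on GENCODE annotation with RSEM 1.3.1. Of the values, 5.41% were not whole, and counts were rounded. All 55450 identifiers were found in GENCODE M21 (GRCm38). The filter kept the 11675 genes whose mean CPM, on library totals, was 1 or more. In R 4.3.3, edgeR 4.0.16 fitted treatment and replicate letter to all 16 libraries after TMM scaling, with quasi-likelihood tests, Benjamini-Hochberg adjustment over all genes tested and a threshold of 0.05. CPM are TMM-scaled, with a prior count of 0.5 on the log2 scale. Standard errors are the absolute log2 fold change divided by the square root of the quasi-likelihood F statistic. Pooled-spread intervals at 95% were built from them.

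The letter was kept because it pairs the libraries. Deviations from the group means correlated over 0.1 in all 24 same-letter pairs (0.144 to 0.469, median 0.263), against a median of -0.114 in 72 other pairs. The batch that the study removed is not named in the sources used here. The 10 genes and all lists were chosen with earlier results of these data known. Named from each list were up to 4 called genes of the smallest p per comparison, and for likeness the 5 genes with the highest correlation with *Srebf1* and with *Fasn*. Some genes that this rule names are not reported here. Alternatives were a fit without the replicate block, RLE factors, library totals only, filterByExpr, no filter, the libraries of a comparison alone, DESeq2 1.42.0, limma-trend (limma 3.58.1) and each library left out in turn. Depth per library, from 22346049 to 35512004, sets the precision of the counts. No pair of libraries of the same group was a duplicate, and pairs from different groups were not compared.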

Additional observations from a re-analysis of the deposited data

Results flagged for a closer look

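In all, 4 values stood out as a library far from the other 3 of its group, among 40 combinations of gene and group, where chance gives about 1 in 20. With itaconate, the highest *Acaca* library was replicate D at 54.1 CPM (48.9 to 49.6 CPM in the others), the lowest *Acacb* library was replicate A at 58.2 CPM (76.1 to 78.4 CPM in the others) and the lowest *Elovl6* library was replicate C at 33.5 CPM (41.2 to 42.6 CPM in the others). With lipid + itaconate, the lowest *Elovl6* library was again replicate C, at 33.6 CPM (41.9 to 43.4 CPM in the others). *Elovl6* replicate C was also the lowest of the untreated (38.6 CPM) and lipid-treated (40.7 CPM) libraries, and *Acacb* replicate A the lowest of all 4 groups. The cause was not tested.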

How the results depend on the processing

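Of the 10 genes, 7 passed for lipid against untreated, and 4 without the replicate block (6 to 8 with each library left out in turn). For itaconate against untreated the count of 0 became 2 with no filter, 1 when its 8 libraries were fitted alone and 1 with DESeq2 (0 to 1 with a library left out, *Acly* being the 1 without lipid replicate B, lipid replicate D or lipid + itaconate replicate C). For lipid + itaconate against lipid the count of 2 became 0 without the replicate block and 0 when its 8 libraries were fitted alone (0 to 2 with a library left out). For lipid + itaconate against itaconate the 7 became 4 without the replicate block (6 to 7 with a library left out), and for the interaction the 0 became 2 with no filter and 1 with DESeq2. The cause was not tested. Of 1190 values of single genes under the alternatives, 32 lost a call, 17 gained one and 46 changed direction, none of the last being called in either fit. Lost calls beside those given above were those of *Scd1* (adjusted p = 0.494) and *Me1* (0.0545) for lipid + itaconate against itaconate in edgeR without the replicate block.

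The changes of direction were all of small log2 fold changes. On library totals only, *Thrsp* with lipid became 0.039, *Acly* with lipid 0.0029, and for lipid + itaconate against lipid *Thrsp* -0.043 and *Me1* -0.0055. *Thrsp* in that comparison was -0.000397 with only its libraries and -0.0077 with limma, and its interaction was 0.011 without the replicate block. The *Scd1* interaction was -0.0044 with RLE factors, -0.028 on library totals, -0.0074 with filterByExpr, -0.0062 with no filter, -0.00435 with DESeq2 and -0.00893 with limma. With a library left out, *Thrsp* ranged from -0.10 to 0.0315 with lipid, from -0.028 to 0.089 with itaconate, from -0.11 to 0.13 for lipid + itaconate against lipid, from -0.19 to 0.050 against itaconate and from -0.15 to 0.090 for the interaction. *Elovl6* ranged from -0.054 to 0.020 with itaconate and from -0.029 to 0.049 for lipid + itaconate against itaconate, and *Me1* from -0.056 to 0.0048 with itaconate and from -0.0062 to 0.085 for lipid + itaconate against lipid. In the latter *Srebf1* ranged from -0.0099 to 0.11 and *Acacb* from -0.11 to 0.015. *Mlxipl* ranged from -0.056 to 0.11 for lipid + itaconate against itaconate, and the *Scd1* interaction from -0.089 to 0.074.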
